A study of Mus musculus with 16 samples.

Results

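Interferon-stimulated genes are the genes that a cell switches on when an interferon binds its receptors. This set held 44 of them: oligoadenylate synthetases, IFIT proteins, GTPases, the ISG15 system, transcription factors of the pathway, sensors of foreign nucleic acid, ADP-ribosyltransferases, antigen-processing genes and other antiviral effectors. The 44 genes were chosen because many of them were high in hair cell-like cells made with retinoic acid and harvested at day 8, so their values in that group describe the choice and test nothing. A gene was followed through the array entry that carried its symbol alone, and 42 of the 44 were found among the 22180 genes compared. Dtx3l was present only in an entry shared by several symbols, Ifi44 had no entry of its own, and neither is given a value here. Ifi35 alone had more than 1 entry, and its brighter one was used.

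The study asked how the transcriptome of hair cell-like cells changes with treatment and time. All 16 arrays came from 1 mouse embryonic stem cell line, iGPA-Myo7a:mVenus, in which doxycycline (Dox) induces Gfi1, Pou4f3 and Atoh1 together and a Venus reporter follows Myo7a, the gene of a hair cell myosin. The line was grown as floating embryoid bodies (EBs). The 12 arrays of induced hair cells (iHCs) came from cells sorted on the reporter, in 4 groups of 3: Dox from day 4 harvested at day 8, the same harvested at day 12, and Dox with retinoic acid (RA) from day 4 harvested at day 8 or at day 12, which made 4 or 8 days of treatment. The 4 control arrays were unsorted EBs of the same line that received neither Dox nor RA, 2 at day 8 and 2 at day 12. Any difference between iHCs and control EBs therefore holds the treatment and the sort together, and these cannot be told apart. The labels call the replicates biological. In bulk RNA of this kind, fewer cells of a type and less RNA per cell cannot be told apart either.

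Values are log2 intensities, so a difference of 1 is a 2-fold change, and all differences below are on that log2 scale, written ± the standard error of the limma fit. A probe set's level cannot be compared with that of another gene. Replicate arrays correlated at 0.982 to 0.995 over all genes. The 8 hair cell markers examined were Myo7a, Atoh1, Pou4f3, Gfi1, Cdh23, Espn, Barhl1 and Lhx3. All 8 passed the test as higher in Dox iHCs than in control EBs on both days. Of all genes, 15.7% passed as higher at day 8 and 19.2% at day 12. The mean level of the 8 markers ran from 8.99 to 9.33 on the Dox day 8 arrays against 5.07 to 5.22 on the day 8 EB arrays.

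Type I interferons signal through the receptor pair Ifnar1 and Ifnar2 and the kinases Jak1 and Tyk2, which lead to a complex that holds Stat2 and Irf9. That complex binds the interferon-stimulated response element, a repeat of the letters GAAA, in the promoters of its targets, and many products of those targets block viral translation, cut RNA, sense RNA or tag proteins with ISG15. One of the sensors, Ddx58, is better known as RIG-I, short for retinoic acid-inducible gene I.

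The set stood highest in Dox+RA iHCs of day 8. The median difference from Dox iHCs of that day was 0.56 over the 42 genes, against 0.02 over all genes, and all 42 lay above 0. Of the 42, 17 were 2-fold or more higher, out of 144 such genes on the whole array. The genes made up 9 of the 20 largest differences in that direction and 15 of the 100 largest. At an adjusted p of 0.05, 23 of the 42 were called higher and 0 lower, where 4.93% of all genes were called in either direction, 2.05% as higher and 2.89% as lower. The members were picked on this contrast, so nothing is read from that count.

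**Figure D1:**
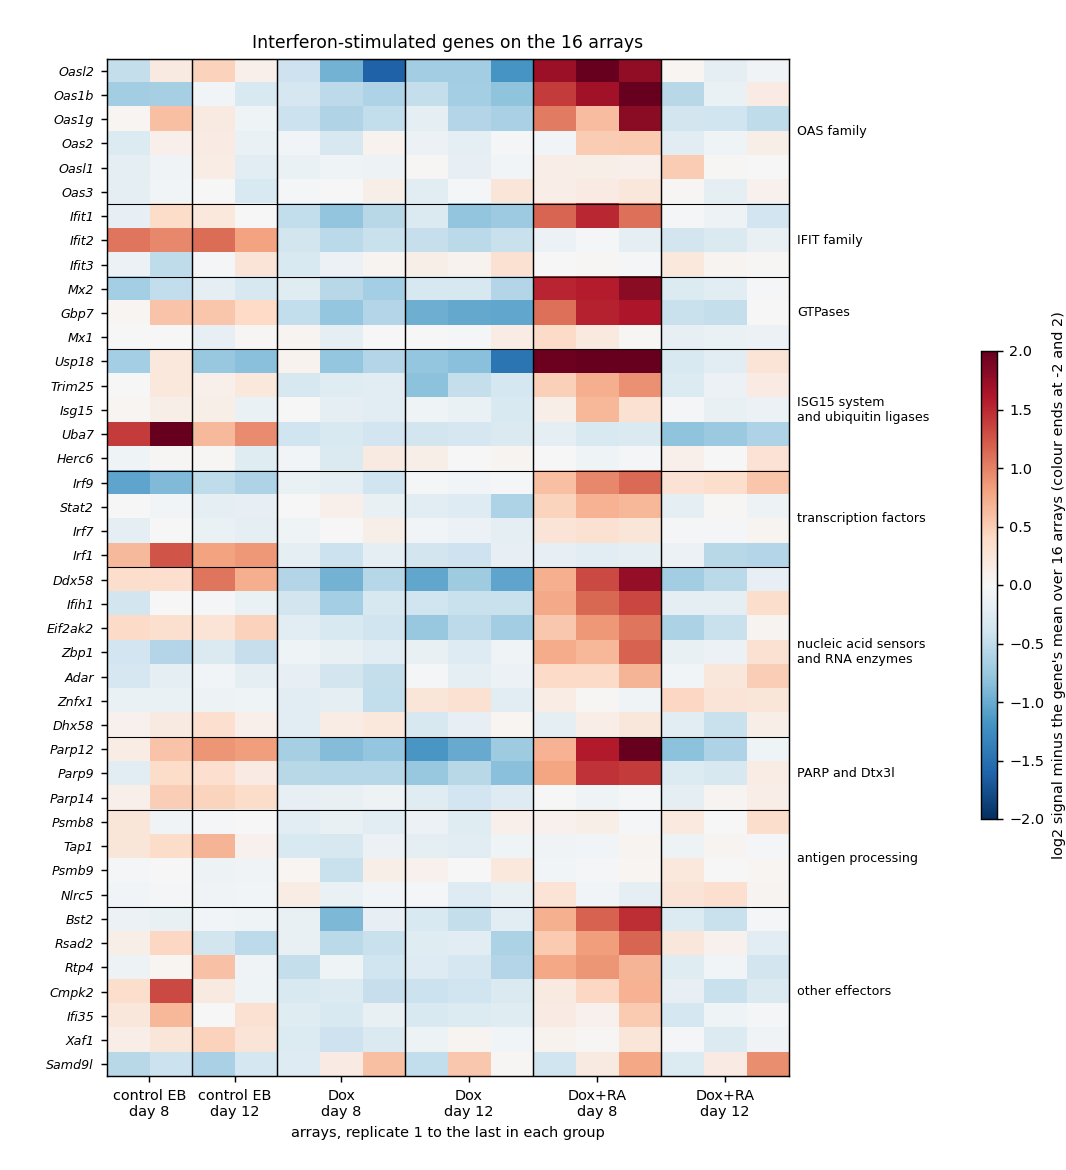
Each of the 42 interferon-stimulated genes (rows, by role) on each of the 16 arrays (columns, by group), as the log2 value minus that gene's mean over the arrays. The 3 Dox+RA day 8 arrays are above all 13 others for 18 of the genes. For Uba7, Irf1, Ifit2 and, by a narrow margin, Tap1, every control EB array is instead above every iHC array.

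The 3 Dox+RA day 8 arrays were not equal. Each gene was centred on its mean over the 16 arrays and the median over the 42 genes was taken per array, which gave 0.32, 0.46 and 0.67 for Dox+RA day 8. The same median was -0.23, -0.31 and -0.26 for Dox day 8, -0.25, -0.27 and -0.26 for Dox day 12, and -0.17, -0.13 and 0.01 for Dox+RA day 12. The control EBs gave -0.05 and 0.11 on day 8 and 0.06 and -0.07 on day 12. The Dox+RA day 8 arrays were highest, which the choice of genes fixes. The EB arrays lay above the Dox arrays of both days and overlapped those of Dox+RA day 12.

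For 18 of the 42 genes, all 3 Dox+RA day 8 arrays were above all 13 other arrays, which held for 0.753% of all genes. Those 18 were Oasl2, Oas1b, Oas1g, Ifit1, Mx2, Gbp7, Usp18, Trim25, Irf7, Irf9, Stat2, Ifih1, Zbp1, Eif2ak2, Parp9, Rsad2, Rtp4 and Bst2. Against the Dox day 8 arrays alone, 33 of the 42 did not overlap, beside 11.9% of all genes. Against the Dox+RA day 12 arrays, 27 of the 42 lay above without overlap, beside 9.96% of all genes.

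Promoter letters were compared with the array values because the response element is a short repeat. RefSeq (GRCm38.p6) gave a window from 250 bases before to 50 bases after the gene start for 31 of the 42 genes. The motif searched was GAAA, 2 bases of any kind and GAAA again, on both strands, so that it may read TTTC, 2 bases, TTTC. It was in the window of 12 of the 31 genes, or 38.7%, and in that of 657 of 16990 genes with an entry, or 3.87%. The 12 holders had a median Dox+RA minus Dox difference of 1.37 at day 8, and 10 of them were called higher. The other 19 had a median of 0.34, and 7 were called higher. Those medians and counts describe the contrast that chose the genes, where 2.05% of all genes were called higher. A motif match is a description of letters, not of a bound site. Oas1b, Oas2, Mx1, Mx2, Usp18, Dhx58, Zbp1, Parp9, Parp14, Nlrc5 and Rtp4 had no window to search.

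Among the 10 genes with the largest day 8 difference, Gbp7, Ifit1 and Oas1g held the motif before their start, and their 250 upstream bases are shown 5′ to 3′ on the gene's strand, with the motif in capitals, to show its place. Gbp7 is at chr3:142530086-142530335 on the plus strand, Ifit1 at chr19:34640639-34640888 on the plus strand and Oas1g at chr5:120887614-120887863 on the minus strand.
Gbp7: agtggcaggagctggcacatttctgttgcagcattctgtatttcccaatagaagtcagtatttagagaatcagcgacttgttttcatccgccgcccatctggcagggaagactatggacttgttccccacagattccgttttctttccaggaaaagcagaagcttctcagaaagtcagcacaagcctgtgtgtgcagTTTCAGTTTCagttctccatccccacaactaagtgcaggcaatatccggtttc
Ifit1: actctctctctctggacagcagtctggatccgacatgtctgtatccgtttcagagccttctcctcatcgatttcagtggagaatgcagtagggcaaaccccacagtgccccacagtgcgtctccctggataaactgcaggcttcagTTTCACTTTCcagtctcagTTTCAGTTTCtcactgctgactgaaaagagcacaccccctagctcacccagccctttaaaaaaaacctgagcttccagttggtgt
Oas1g: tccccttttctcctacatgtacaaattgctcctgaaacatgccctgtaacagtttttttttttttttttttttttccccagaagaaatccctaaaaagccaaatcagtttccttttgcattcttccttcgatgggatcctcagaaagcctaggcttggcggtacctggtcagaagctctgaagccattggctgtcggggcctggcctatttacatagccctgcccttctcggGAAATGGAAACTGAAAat
Ifit1 carried the motif at -104 to -95 and again at -85 to -76 from its start, Gbp7 at -53 to -44, and Oas1g as overlapping copies from -18 to -3.

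Shorter windows are shown for other holders, capitals again marking the motif, because those genes differed widely in the arrays. The motif lay after the gene start in Ddx58, at 3 to 12, and in Ifih1, at 33 to 42. In the other genes shown it lay before the start. Ddx58 (chr4:40239807-40239830, minus strand), Ifih1 (chr2:62646207-62646230, minus strand), Bst2 (chr8:71537580-71537609, minus strand) and Rsad2 (chr12:26456556-26456579, minus strand) were each over 2-fold higher in Dox+RA than in Dox iHCs at day 8. Stat2 (chr10:128270269-128270292, plus strand) and Isg15 (chr4:156200875-156200896, minus strand) were higher by less. Oas3 (chr5:120777718-120777741, minus strand) and Ifit3 (chr19:34583366-34583389, plus strand) were not called different at day 8, although they hold the same letters.
Ddx58: gaggcagTTTCGATTTCctatggc
Ifih1: gagaatcGAAACAGAAAccgatct
Bst2: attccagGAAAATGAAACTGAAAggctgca
Rsad2: gtccaacTTTCATTTTCagaaaac
Stat2: accctggTTTCAGTTTCctttccc
Isg15: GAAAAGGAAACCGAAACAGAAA
Oas3: gggaggaGAAAACGAAAgtgaagg
Ifit3: tggtaagTTTCACTTTCctcttct
The Isg15 window is filled by 4 spaced GAAA repeats. So the letters were present both in genes that were over 2-fold higher and in genes that were not called.

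Transcription factors come first, since they carry the signal to the promoters. Irf9, the DNA-binding partner of Stat2, read 8.17, 8.53 and 8.71 on the Dox+RA day 8 arrays, 7.43, 7.38 and 7.17 on Dox day 8, 7.87, 7.92 and 8.13 on Dox+RA day 12, 7.56, 7.52 and 7.56 on Dox day 12, 6.51 and 6.69 on EB day 8, and 7.06 and 6.95 on EB day 12. Every iHC array was above every control EB array, and the Dox+RA day 8 arrays were highest. The day 8 RA difference was 1.14 ± 0.12. In contrasts without the Dox+RA day 8 group, by limma, Irf9 rose in Dox iHCs over control EBs by 0.73 ± 0.14 at day 8 (adjusted p = 6.9e-04) and 0.54 ± 0.14 at day 12 (adjusted p = 0.00541). In Dox+RA iHCs over control EBs at day 12 it rose by 0.96 ± 0.14 (adjusted p = 3.6e-05). The day 12 rise in Dox iHCs was 0.48 and no longer called without day 12 EB replicate 2 (adjusted p = 0.0558; range over all alternatives 0.00125 to 0.0558).

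Stat2 read 7.09, 7.33 and 7.30 on the Dox+RA day 8 arrays and 6.64, 6.75 and 6.49 on the Dox day 8 arrays, a difference of 0.62 ± 0.11. Irf7, which amplifies interferon production, read 4.90, 4.95 and 4.88 against 4.56, 4.65 and 4.77, a difference of 0.25 ± 0.08. Both sets of arrays were apart, although the Irf7 step was small and not called. Irf1, a factor of the interferon-gamma response, read 4.25, 4.19 and 4.24 on the Dox+RA day 8 arrays, 4.22, 3.99 and 4.23 on Dox day 8, 4.30, 3.86 and 3.83 on Dox+RA day 12, 4.05, 4.00 and 4.24 on Dox day 12, 5.07 and 5.66 on EB day 8, and 5.22 and 5.28 on EB day 12. Irf1 was thus the reverse of Irf9, low on all 12 iHC arrays and higher on all 4 EB arrays, and at day 8 Dox+RA differed from Dox by 0.08 ± 0.15. It fell in Dox iHCs against control EBs by 1.22 at day 8 (adjusted p = 3.2e-05) and by 1.15 at day 12 (adjusted p = 4.0e-05), with standard errors of 0.17.

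The oligoadenylate synthetases make the second messenger that activates the RNA-cutting enzyme RNase L, and the OAS-like proteins act in antiviral sensing. Of the 6 on the array, 3 were called higher at day 8 with RA, beside 2.05% of all genes. The contrast chose the genes, so the count is a description. Oasl2 read 7.62, 7.96 and 7.68 on the Dox+RA day 8 arrays, 5.50, 4.97 and 4.29 on Dox day 8, 5.95, 5.71 and 5.85 on Dox+RA day 12, 5.21, 5.22 and 4.73 on Dox day 12, 5.44 and 6.09 on EB day 8, and 6.37 and 6.01 on EB day 12. The Dox+RA day 8 arrays were the highest, by 2.84 ± 0.25 over Dox day 8 (7.14-fold), by 1.92 ± 0.25 over Dox+RA day 12 and by 1.99 ± 0.28 over control EBs of day 8. Oas1b read 6.29, 6.57 and 7.49 on the Dox+RA day 8 arrays, 4.55, 4.37 and 4.27 on Dox day 8, 4.34, 4.75 and 5.05 on Dox+RA day 12, 4.41, 4.20 and 4.09 on Dox day 12, 4.20 and 4.22 on EB day 8, and 4.84 and 4.59 on EB day 12. Its other 13 arrays all lay between 4.09 and 5.05, and the difference from Dox day 8 was 2.39 ± 0.24. Oas1g read 3.76, 3.35 and 4.53 on the Dox+RA day 8 arrays, 2.29, 2.13 and 2.24 on Dox day 8, 2.36, 2.33 and 2.22 on Dox+RA day 12, 2.54, 2.14 and 2.08 on Dox day 12, 2.77 and 3.33 on EB day 8, and 2.90 and 2.65 on EB day 12. Oas1g is close in sequence to Oas1a, whose entry carries several symbols, so its signal may hold both; the difference was 1.66 ± 0.23, and the day 8 EB arrays came nearest to the Dox+RA ones. Oas3 read 4.62, 4.66 and 4.71 on the Dox+RA day 8 arrays, 4.46, 4.47 and 4.60 on Dox day 8, 4.51, 4.30 and 4.58 on Dox+RA day 12, 4.28, 4.46 and 4.73 on Dox day 12, 4.29 and 4.43 on EB day 8, and 4.48 and 4.19 on EB day 12. Its day 8 iHC arrays lay apart by a small step, a difference of 0.15 ± 0.12, while Oasl1 at 0.22 ± 0.13 and Oas2 at 0.43 ± 0.16 were not called either. Oasl2 and Oasl1 adjoin each other on chromosome 5 with no coding gene between them in the RefSeq order, as do Oas2 and Oas3 (GRCm38.p6), and of these neighbours Oasl2 alone was called.

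**Figure D2:**
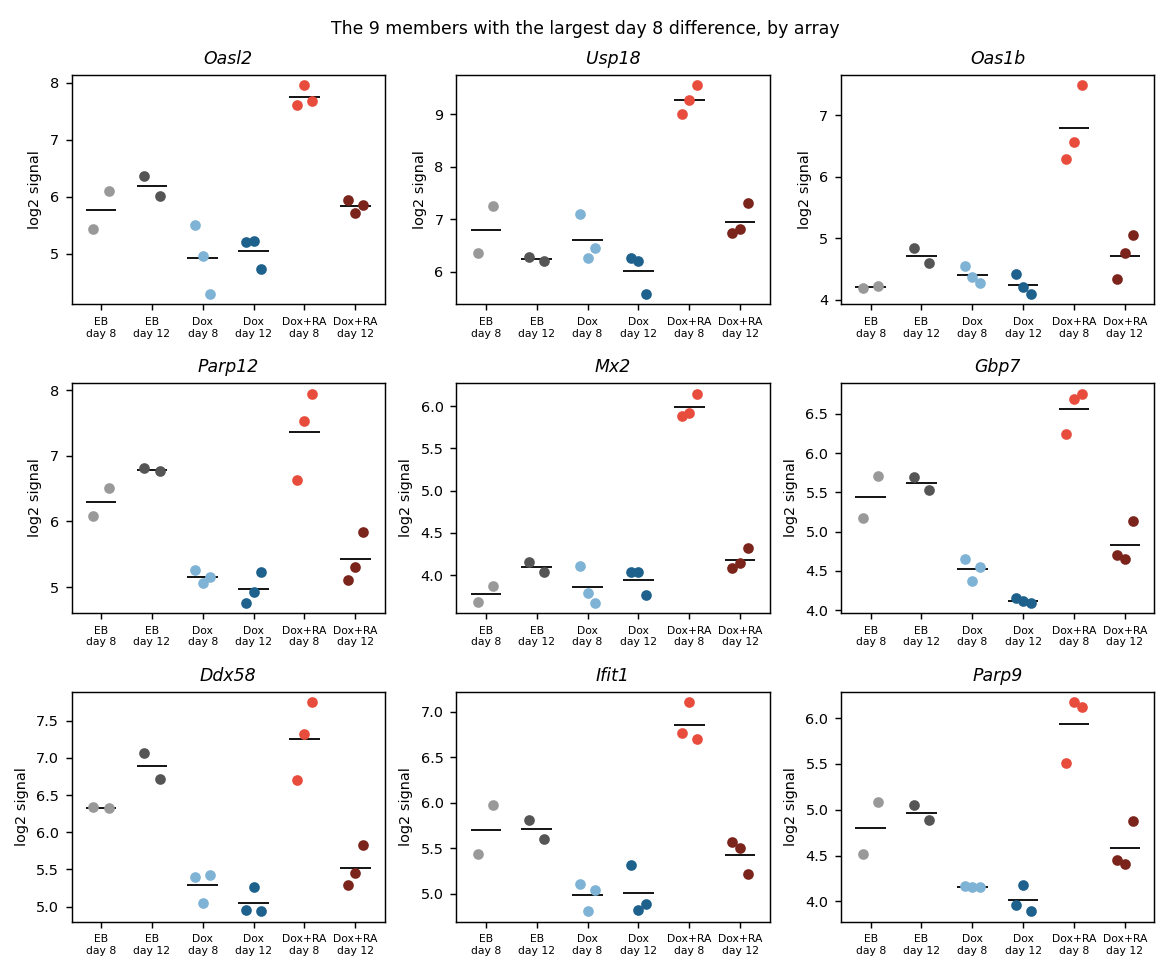
Log2 value on each array (points) and group mean (lines) for the 9 genes with the largest day 8 difference between Dox+RA and Dox iHCs, by group. For Oasl2 the 3 Dox+RA day 8 arrays sit between 7.62 and 7.96, and the other 13 arrays sit between 4.29 and 6.37.

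The IFIT proteins bind viral RNA and hold back translation. Ifit1 read 6.76, 7.10 and 6.70 on the Dox+RA day 8 arrays, 5.11, 4.81 and 5.04 on Dox day 8, 5.56, 5.50 and 5.22 on Dox+RA day 12, 5.31, 4.82 and 4.88 on Dox day 12, 5.43 and 5.97 on EB day 8, and 5.81 and 5.60 on EB day 12. All Dox+RA day 8 arrays lay above the others, with a difference of 1.87 ± 0.17 from Dox day 8. Ifit2 read 3.50, 3.59 and 3.43 on the Dox+RA day 8 arrays, 3.25, 3.08 and 3.18 on Dox day 8, 3.24, 3.33 and 3.47 on Dox+RA day 12, 3.16, 3.08 and 3.17 on Dox day 12, 4.68 and 4.58 on EB day 8, and 4.73 and 4.42 on EB day 12. Here the 4 EB arrays formed the high group: none of them lay under 4.42, and no iHC array passed 3.59. Ifit2 fell in Dox iHCs against control EBs by 1.46 (SE 0.11, adjusted p = 7.1e-08) at day 8 and by 1.44 (SE 0.11, adjusted p = 4.8e-08) at day 12. It kept that call in every alternative that tested it, while the filter on dim genes left it out. Ifit3 read 6.39, 6.42 and 6.36 on the Dox+RA day 8 arrays, 6.10, 6.27 and 6.45 on Dox day 8, 6.61, 6.45 and 6.42 on Dox+RA day 12, 6.52, 6.46 and 6.71 on Dox day 12, 6.29 and 5.89 on EB day 8, and 6.37 and 6.65 on EB day 12. It differed by 0.12 ± 0.12 between Dox+RA and Dox at day 8, and its near-identical copy Ifit3b makes its signal uncertain. Ifit2 and Ifit3 are neighbours on chromosome 19 and Ifit1 lies 3 coding genes further, so the 3 genes of 1 cluster took 3 different courses.

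Mx2 and Gbp7 are GTPases that oligomerise on viral or vacuolar targets, and both were higher in Dox+RA day 8. Mx2 read 5.88, 5.92 and 6.15 on the Dox+RA day 8 arrays, 4.10, 3.79 and 3.67 on Dox day 8, 4.08, 4.15 and 4.32 on Dox+RA day 12, 4.03, 4.03 and 3.76 on Dox day 12, 3.68 and 3.87 on EB day 8, and 4.15 and 4.03 on EB day 12. The other 13 arrays spanned 3.67 to 4.32, under every Dox+RA day 8 array. Its difference was 2.13 ± 0.12 from Dox day 8 and 1.80 ± 0.12 from Dox+RA day 12. Gbp7 read 6.24, 6.68 and 6.76 on the Dox+RA day 8 arrays, 4.65, 4.37 and 4.55 on Dox day 8, 4.70, 4.66 and 5.13 on Dox+RA day 12, 4.16, 4.11 and 4.10 on Dox day 12, 5.18 and 5.71 on EB day 8, and 5.70 and 5.53 on EB day 12. It was high in Dox+RA day 8, intermediate in control EBs and low in Dox iHCs of both days. Mx1 read 3.90, 3.72 and 3.54 on the Dox+RA day 8 arrays, 3.58, 3.33 and 3.53 on Dox day 8, 3.36, 3.39 and 3.41 on Dox+RA day 12, 3.52, 3.48 and 3.67 on Dox day 12, 3.52 and 3.53 on EB day 8, and 3.36 and 3.56 on EB day 12. Its arrays of day 8 overlapped, and the difference was 0.24 ± 0.10.

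The ISG15 system attaches the small protein ISG15 to others: Uba7 is its activating enzyme, Herc6 a ligase in mice, Trim25 a ligase for RIG-I, and Usp18 the protease that removes ISG15 and damps the type I receptor. Usp18 read 9.01, 9.26 and 9.55 on the Dox+RA day 8 arrays, 7.10, 6.27 and 6.45 on Dox day 8, 6.73, 6.82 and 7.31 on Dox+RA day 12, 6.27, 6.20 and 5.58 on Dox day 12, 6.36 and 7.24 on EB day 8, and 6.28 and 6.20 on EB day 12. The Dox+RA day 8 arrays were above 9 while no other array passed 7.31, a difference of 2.67 ± 0.26 from Dox day 8 (6.34-fold). Isg15 read 4.41, 4.96 and 4.60 on Dox+RA day 8 and 4.29, 4.09 and 4.06 on Dox day 8. Its difference was 0.51 ± 0.13, smaller than that of Usp18, and the control EBs lay at 4.14 to 4.41. Trim25 differed by 0.96 ± 0.14. Herc6 read 4.32, 4.25 and 4.29 on the Dox+RA day 8 arrays, 4.28, 4.04 and 4.52 on Dox day 8, 4.43, 4.33 and 4.62 on Dox+RA day 12, 4.46, 4.33 and 4.39 on Dox day 12, 4.24 and 4.36 on EB day 8, and 4.35 and 4.09 on EB day 12. It showed no step at day 8, with a difference of 0.01 ± 0.12. Uba7 read 4.90, 4.77 and 4.79 on the Dox+RA day 8 arrays, 4.68, 4.77 and 4.71 on Dox day 8, 4.27, 4.35 and 4.46 on Dox+RA day 12, 4.71, 4.75 and 4.79 on Dox day 12, 6.48 and 7.13 on EB day 8, and 5.73 and 6.03 on EB day 12. No EB array lay under 5.73 and no iHC array passed 4.90, so the activating enzyme was lowest in iHCs with or without RA. Uba7 fell by 2.09 (SE 0.15, adjusted p = 5.0e-08) in Dox iHCs at day 8 and by 1.13 (SE 0.15, adjusted p = 1.5e-05) at day 12, and in Dox+RA iHCs of day 12 by 1.52 (SE 0.15, adjusted p = 6.0e-07). It also fell with time in the control EBs, by 0.92 (SE 0.16, adjusted p = 0.00355), a call that was lost without day 12 EB replicate 1 (-0.77, adjusted p = 0.0697) and in a fit of the EB arrays alone (adjusted p = 0.0898; range over all alternatives 1.0e-04 to 0.0898).

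Ddx58 (RIG-I) and Ifih1 (MDA5) sense double-stranded RNA in the cytosol, Dhx58 (LGP2) tunes them, Eif2ak2 (PKR) stops translation, Adar edits double-stranded RNA and Zbp1 binds left-handed nucleic acid. Of the 7 sensors and RNA enzymes, 5 were called higher at day 8 with RA, beside 2.05% of all genes. This count too describes the contrast that chose the genes. Ddx58 read 6.70, 7.32 and 7.75 on the Dox+RA day 8 arrays, 5.40, 5.05 and 5.42 on Dox day 8, 5.30, 5.45 and 5.83 on Dox+RA day 12, 4.95, 5.27 and 4.94 on Dox day 12, 6.34 and 6.33 on EB day 8, and 7.06 and 6.72 on EB day 12. The Dox+RA day 8 and EB arrays overlapped, and both stood above the Dox iHCs and the Dox+RA iHCs of day 12. The difference was 1.97 ± 0.21 from Dox day 8, 1.73 ± 0.21 from Dox+RA day 12 and 0.93 ± 0.24 from control EBs of day 8. Ifih1 differed by 1.54 ± 0.17, Eif2ak2 by 1.14 ± 0.16, Zbp1 by 1.01 ± 0.14, Adar by 0.82 ± 0.13 and Znfx1 by 0.34 ± 0.12 between Dox+RA and Dox at day 8. Dhx58 read 4.51, 4.84 and 4.93 on the Dox+RA day 8 arrays, 4.47, 4.86 and 4.91 on Dox day 8, 4.48, 4.26 and 4.82 on Dox+RA day 12, 4.39, 4.54 and 4.75 on Dox day 12, 4.79 and 4.88 on EB day 8, and 5.04 and 4.81 on EB day 12. It was the one sensor of the RIG-I family without a step, at 0.01 ± 0.16.

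The PARP members add ADP-ribose to proteins, and Parp9 pairs with Dtx3l in the antiviral response. Parp12 read 6.62, 7.52 and 7.95 on the Dox+RA day 8 arrays, 5.26, 5.06 and 5.15 on Dox day 8, 5.11, 5.31 and 5.84 on Dox+RA day 12, 4.76, 4.93 and 5.22 on Dox day 12, 6.09 and 6.50 on EB day 8, and 6.81 and 6.77 on EB day 12. Replicate 1 of Dox+RA day 8 lay within the range of the control EBs and the other replicates above it, while Dox iHCs of both days were low. The difference was 2.21 ± 0.26 from Dox day 8 and 1.07 ± 0.29 from control EBs of day 8. Parp9 read 5.51, 6.17 and 6.12 on the Dox+RA day 8 arrays, 4.16, 4.15 and 4.15 on Dox day 8, 4.45, 4.41 and 4.88 on Dox+RA day 12, 3.97, 4.17 and 3.90 on Dox day 12, 4.52 and 5.09 on EB day 8, and 5.05 and 4.89 on EB day 12. Its Dox+RA day 8 arrays were above all others, by 1.78 ± 0.18 over Dox day 8. Parp14 read 4.56, 4.46 and 4.53 on the Dox+RA day 8 arrays, 4.39, 4.41 and 4.44 on Dox day 8, 4.35, 4.61 and 4.68 on Dox+RA day 12, 4.31, 4.17 and 4.28 on Dox day 12, 4.66 and 5.04 on EB day 8, and 4.99 and 4.92 on EB day 12. RA at day 8 differed from Dox by 0.11 ± 0.11, and both EB groups had a higher mean than every iHC group. Parp9 and Parp14 flank Dtx3l on chromosome 16 with no coding gene between.

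Antigen-processing genes of the set belong mostly to the interferon-gamma arm: Psmb8 and Psmb9 are immunoproteasome subunits, Tap1 a peptide transporter and Nlrc5 the activator of class I genes. None of the 4 was called at day 8, by limma, beside 4.93% of all genes, and their median difference was 0.15. Psmb8 read 4.65, 4.69 and 4.53 on the Dox+RA day 8 arrays, 4.36, 4.41 and 4.35 on Dox day 8, 4.77, 4.57 and 4.92 on Dox+RA day 12, 4.45, 4.32 and 4.67 on Dox day 12, 4.82 and 4.49 on EB day 8, and 4.52 and 4.57 on EB day 12, a difference of 0.25 ± 0.11. Nlrc5 read 4.64, 4.32 and 4.19 on the Dox+RA day 8 arrays, 4.53, 4.24 and 4.32 on Dox day 8, 4.64, 4.71 and 4.43 on Dox+RA day 12, 4.33, 4.12 and 4.23 on Dox day 12, 4.32 and 4.36 on EB day 8, and 4.30 and 4.33 on EB day 12, a difference of 0.02 ± 0.12. Neither showed the step seen in Oasl2 or Usp18, and Tap1 and Psmb9 differed by 0.23 ± 0.12 and 0.08 ± 0.12.

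Of the 7 other effectors, 5 were called higher at day 8 with RA, beside 2.05% of all genes, on the contrast that chose the genes. The count was 3 without Dox day 8 replicate 2 or 3 or without Dox+RA day 8 replicate 3. Bst2 (tetherin), which holds budding virus at the cell surface, read 5.56, 6.03 and 6.33 on the Dox+RA day 8 arrays, 4.71, 3.96 and 4.69 on Dox day 8, 4.57, 4.40 and 4.84 on Dox+RA day 12, 4.56, 4.37 and 4.64 on Dox day 12, 4.74 and 4.70 on EB day 8, and 4.80 and 4.78 on EB day 12. The Dox+RA day 8 arrays were above all others, by 1.52 ± 0.20 over Dox day 8. Rsad2 (viperin) and Cmpk2, which act together to make a chain-terminating nucleotide and adjoin each other on chromosome 12, differed by 1.22 ± 0.17 and 0.77 ± 0.19. Rtp4 differed by 1.10 ± 0.16, Ifi35 by 0.49 ± 0.14 and Xaf1 by 0.43 ± 0.10. Samd9l read 2.68, 3.26 and 3.86 on the Dox+RA day 8 arrays, 2.82, 3.25 and 3.69 on Dox day 8, 2.82, 3.24 and 4.02 on Dox+RA day 12, 2.60, 3.62 and 3.10 on Dox day 12, 2.53 and 2.66 on EB day 8, and 2.43 and 2.74 on EB day 12. Replicate 3 was above replicate 1 in each of the 4 iHC groups, the groups overlapped, and the day 8 difference was 0.02 ± 0.34. Cmpk2 read 5.33, 5.55 and 5.84 on the Dox+RA day 8 arrays, 4.84, 4.86 and 4.69 on Dox day 8, 4.98, 4.69 and 4.85 on Dox+RA day 12, 4.71, 4.74 and 4.85 on Dox day 12, 5.50 and 6.47 on EB day 8, and 5.32 and 5.06 on EB day 12. It was highest in EB day 8 replicate 2 and fell in Dox iHCs of that day by 1.19 (SE 0.21, adjusted p = 4.2e-04).

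The set was also read at day 12, in separate harvests after 8 days of treatment. Dox+RA iHCs of day 8 were above those of day 12 with a median member difference of 0.47, and 21 of 42 were called higher and 0 lower, beside 4.38% of all genes, 2.61% as higher and 1.78% as lower. Against Dox iHCs of day 12 the median was 0.57, with 23 called higher and 0 lower beside 2.24% of all genes, 1.27% as higher and 0.974% as lower. Against control EBs of day 12 it was 0.40, with 20 called higher and 5 lower beside 39.7% of all genes, 18.7% as higher and 21.0% as lower. These contrasts used the group that chose the genes and are descriptions. The contrast of Dox+RA with Dox iHCs at day 12 did not use it. There 0 of 42 were called by limma after adjustment over all genes, beside 0.924% of all genes, 0.383% as higher and 0.541% as lower, while 17 passed an unadjusted p of 0.05, 16 of them higher. The median difference was 0.22 and 34 of 42 lay above 0. The largest values were 0.94 ± 0.26 for Usp18 (adjusted p = 0.124) and 0.78 ± 0.25 for Oasl2 (adjusted p = 0.185). Next were 0.71 ± 0.16 for Gbp7 (adjusted p = 0.0593) and 0.57 ± 0.18 for Parp9 (adjusted p = 0.185). Trim25, which was not the next largest, differed by 0.47 ± 0.14 (adjusted p = 0.155). Gbp7 was called in fits without EB day 8 replicate 1 or 2 (adjusted p = 0.0407 for either) or without Dox+RA day 8 replicate 1 (adjusted p = 0.0357). With the replicate number as a block, Gbp7 and Trim25 were called higher (adjusted p = 0.0238 and 0.00948), beside 3.26% of all genes. Over all alternatives the adjusted p ran over 0.0238 to 0.199 for Gbp7 and 0.00948 to 0.367 for Trim25.

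**Figure D3:**
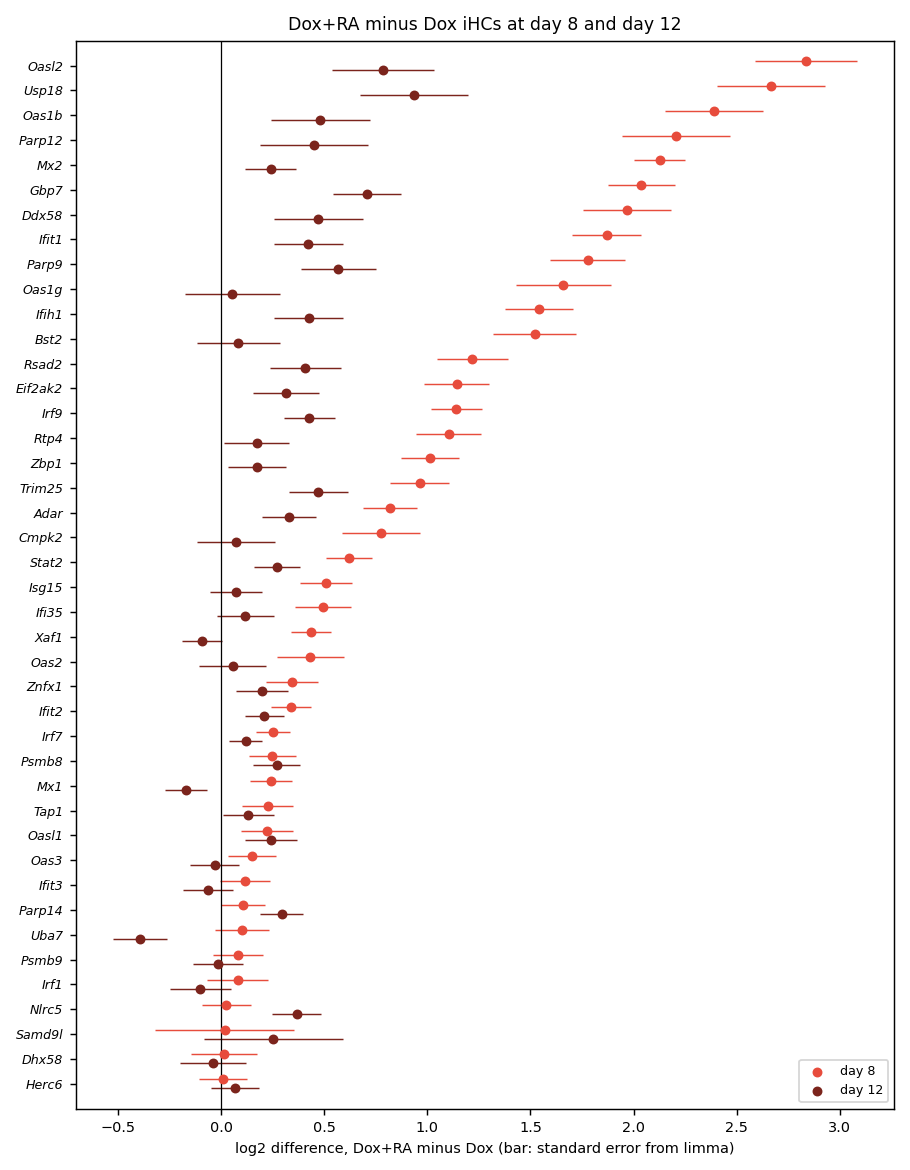
Log2 difference of Dox+RA minus Dox iHCs for each of the 42 genes (rows) at day 8 and at day 12, with the standard error from limma as bars. Values run from 0.01 to 2.84 at day 8, and 36 of the 42 genes are larger at day 8 than at day 12.

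Across the 42 genes the RA difference at day 8 and that at day 12, which come from separate arrays, had a Pearson r of 0.74, against 0.61 over all genes. The genes are not independent and the points share a platform, so the value is a description. The RA difference at day 8 exceeded that at day 12 in 36 of 42 genes, with a median excess of 0.49. This excess uses the Dox+RA day 8 group that chose the genes. It and the calls that follow are therefore descriptions and support nothing. Fitted as a difference of differences, Mx2 alone was called (1.89, SE 0.17), beside 0.00902% of all genes. For the other genes of the set the excess was not called in that fit. With the replicate block, 2 GTPases and 1 gene each of the OAS, IFIT, PARP and other effector groups were called higher. Without Dox+RA day 8 replicate 1, 2 GTPases and 1 gene each of the OAS, PARP and sensor groups were called. Without Dox+RA day 12 replicate 3, these were 2 GTPases, 1 OAS gene and 1 sensor. Leaving out Dox day 8 replicate 1 added 1 OAS gene. The filter on dim genes left 0 GTPases called.

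Without RA, the set was lower in iHCs than in control EBs for part of its members. These contrasts did not themselves enter the choice of genes. The Dox day 8 arrays are shared with the contrast on which the genes were picked. The day 8 count against control EBs is therefore not independent of the choice. In Dox iHCs against control EBs at day 8, 17 of 42 were called lower and 1 higher, beside 34.6% of all genes, of which 18.9% lower and 15.7% higher, and the median was -0.27. At day 12, 16 were called lower and 1 higher, beside 40.8% of all genes, of which 21.7% lower and 19.2% higher, with a median of -0.30. In Dox+RA iHCs against control EBs at day 12, 11 were called lower and 2 higher, beside 44.8% of all genes, of which 22.4% lower and 22.4% higher, with a median of -0.08. The last share of lower genes was close to the background, and the first 2 were above it. The day 8 count fell without day 8 EB replicate 2: then 9 were called lower and 1 higher, beside 25.3% of all genes.

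The genes that carried the fall were Uba7, Ifit2, Irf1, Ddx58 and Gbp7. Each was called lower in all 3 of these contrasts and in every alternative that tested it. The filter on dim genes left out Ifit2. Ddx58 fell in Dox iHCs by 1.04 (SE 0.24, adjusted p = 0.00292) at day 8 and by 1.83 (SE 0.24, adjusted p = 1.6e-05) at day 12. Gbp7 fell by 0.92 (SE 0.18, adjusted p = 9.7e-04) at day 8 and by 1.50 (SE 0.18, adjusted p = 7.9e-06) at day 12. Parp12 fell by 1.82 (SE 0.29, adjusted p = 1.2e-04) in Dox iHCs and by 1.37 (SE 0.29, adjusted p = 0.00125) in Dox+RA iHCs at day 12. With Dox+RA at day 8 these genes went different ways: Ddx58 and Gbp7 were above control EBs by 0.93 ± 0.24 and 1.12 ± 0.18, while Uba7, Ifit2 and Irf1 differed from control EBs by -1.98 ± 0.15, -1.13 ± 0.11 and -1.14 ± 0.17. In that contrast 21 of 42 were called higher and 4 lower (Uba7, Ifit2, Irf1 and Parp14), beside 41.6% of all genes, 19.6% higher and 22.0% lower. It shares the EB arrays with the Dox contrast of day 8 and used the group that chose the genes.

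Markers of other cells differed between iHCs and EBs as well. For comparison, 18.9% of all genes were called lower in Dox iHCs than in control EBs at day 8 and 21.7% at day 12. In either direction these shares were 34.6% and 40.8%. Of 11 macrophage markers, 5 were lower in Dox iHCs than in control EBs at day 8 and 9 at day 12. The day 8 count was 3 without EB day 8 replicate 1, and with dim genes left out the counts were 3 and 5. Their mean level was 5.04 to 6.12 over the 4 EB arrays and 4.45 to 4.67 over the Dox arrays. All 5 endothelial markers were lower in Dox iHCs on both days, with means of 7.69 to 8.53 in EBs and 4.75 to 6.30 in Dox iHCs. All 6 mesenchyme markers and both red cell markers on the array were lower on both days too (1 red cell marker at day 12 without either EB replicate or without Dox replicate 1 or 2), as were 3 of 4 pluripotent markers at day 8 and 4 at day 12, and 0 of 5 dendritic and lymphoid markers were called. Their part in the fall of Uba7, Ifit2 and Irf1 was not tested.

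**Figure D4:**
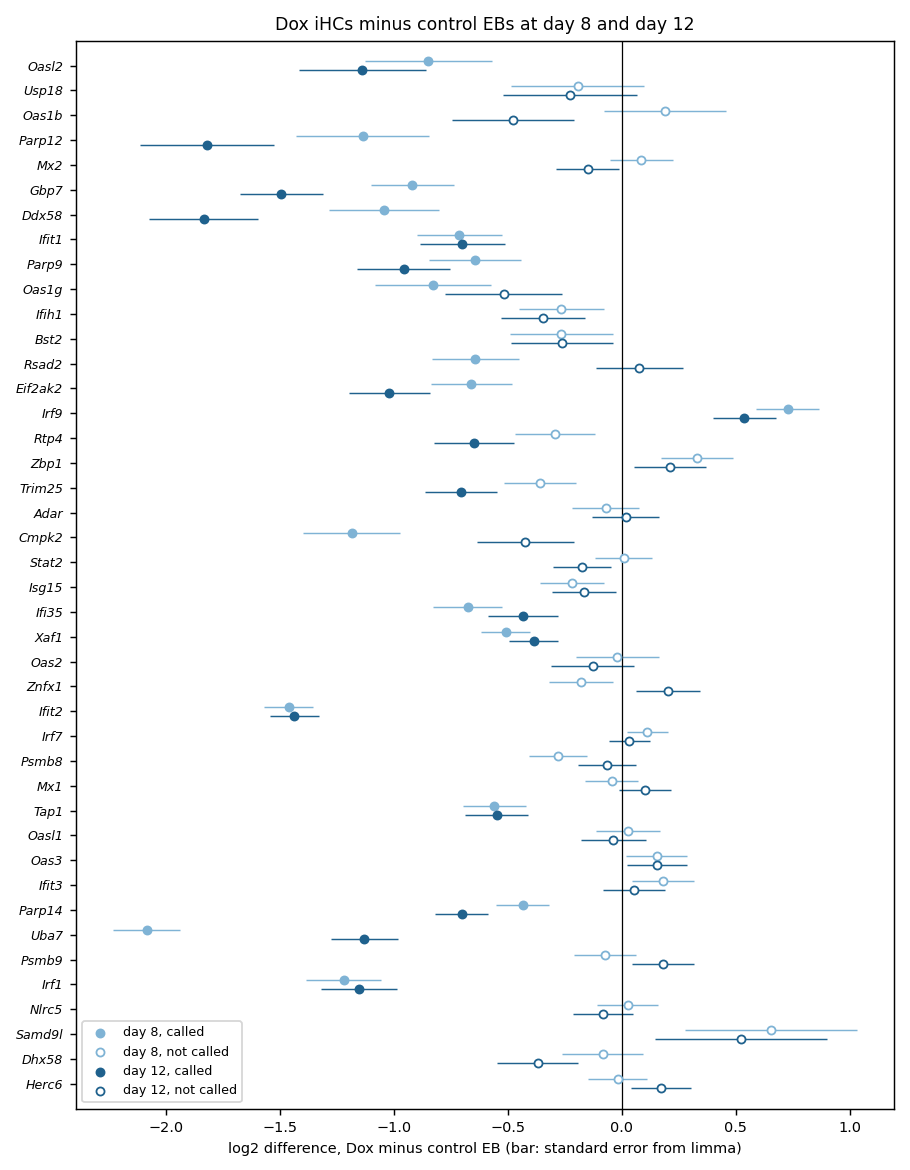
Log2 difference of Dox iHCs minus control EBs for each of the 42 genes at day 8 and at day 12, with the standard error from limma as bars and filled points for calls. Uba7 and Ifit2 lie below -1 on both days and Irf9 lies above 0.5 on both.

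Few of the genes were called for time in Dox iHCs or in control EBs. Between day 8 and day 12 of Dox iHCs, 0 of 42 were called by limma, beside 8.05% of all genes, 3.39% as higher and 4.66% as lower, and 7 passed an unadjusted p of 0.05; without Dox day 12 replicate 3 the count was 1. With the replicate block 3 were called, Trim25 and Stat2 lower (-0.29 and -0.34, adjusted p = 0.0341 and 0.0391) and Znfx1 higher (0.41, adjusted p = 0.00763), beside 14.2% of all genes. The adjusted p over all alternatives ran over 0.0341 to 0.681 for Trim25, 0.0391 to 0.271 for Stat2 and 0.00354 to 0.226 for Znfx1. In control EBs Uba7 alone was called, as lower, beside 3.75% of all genes, 2.33% as higher and 1.42% as lower; the count was 2 without EB day 8 replicate 1 and 0 without EB day 12 replicate 1. The change over time differed between Dox iHCs and control EBs for Uba7 alone, beside 2.84% of all genes, 1.03% with the larger change in Dox iHCs and 1.81% with the smaller; that call was lost without EB day 12 replicate 1 or EB day 8 replicate 2, and the count was 2 without EB day 8 replicate 1.

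Genes of the wider pathway were read from lists of 120 named genes, of which 100 had an entry. At day 8 with RA, 12 of the 100 were called higher and 0 lower. The day 8 arrays chose the members of the set and these lists are close to it, so the counts are given as descriptions beside the background of 4.93%. Of the 19 interferon genes themselves, 0 were called by limma and 1 passed an unadjusted p of 0.05. The count was 1 with the replicate block, with median centring, quantile scaling or the filter on dim genes, and without Dox day 8 replicate 1 or Dox+RA day 8 replicate 1. Their differences ran from -0.21 to 0.38 with a median of 0.04, and those farthest from 0 were 0.38 ± 0.11 for Ifna15, 0.24 ± 0.16 for Ifnab and -0.21 ± 0.17 for Ifnl3. Ifnb1, the usual first interferon of non-immune cells, read 2.49 to 2.94 over all 16 arrays. At day 12 with RA, 0 of the 19 were called and 0 passed an unadjusted p of 0.05.

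Of the 10 receptors and kinases, Jak2 alone was called at day 8 with RA (0.45 ± 0.10); the call was lost without replicate 2 or 3 of Dox day 8, without replicate 1 or 2 of Dox+RA day 8 and in a fit of only the groups compared. Stat3 differed by 0.35 ± 0.14, called with the replicate block, and Ifnar2 by -0.27 ± 0.09. None of the 15 sensing adaptors was called by limma, and 1 passed an unadjusted p of 0.05. The values farthest from 0 were 0.25 ± 0.09 for Irf8, 0.18 ± 0.09 for Tbk1 and -0.16 ± 0.11 for Irf3. Among the 11 negative regulators and nucleases, Ptpn6, a phosphatase, was called (0.42 ± 0.10), a call lost without replicate 2 or 3 of Dox day 8 or without any 1 of the Dox+RA day 8 arrays. Rnaseh2b differed by -0.63 ± 0.24 and Samhd1 by -0.37 ± 0.19, and both were called with the replicate block. The remaining 10 calls were among 45 other interferon-induced genes, whose median difference was 0.14. Rnf213, a large ubiquitin ligase, read 6.89, 7.04 and 7.32 on the Dox+RA day 8 arrays against 5.63, 5.36 and 5.46 on Dox day 8, a difference of 1.60 ± 0.16. Trim21, an antibody receptor of the cytosol, read 7.59, 7.78 and 8.28 against 6.37, 6.30 and 6.45, a difference of 1.51 ± 0.16. Lgals3bp read 8.32, 8.42 and 8.35 against 7.19, 7.09 and 6.84, a difference of 1.32 ± 0.13. In none of the 3 did the groups overlap. At day 12 with RA, Lgals3bp alone of the 100 was called (0.63 ± 0.13, adjusted p = 0.0303, range over all alternatives 0.012 to 0.145), a call lost without replicate 1 or 3 of Dox day 12 or replicate 1 or 2 of Dox+RA day 12. At day 8 Gbp3, Ifitm3, Tapbp, Ifi27, Irgm1, Tdrd7 and Ddx60 made up the rest, with differences from 0.48 ± 0.08 (Ddx60) to 1.10 ± 0.12 (Gbp3).

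**Figure D5:**
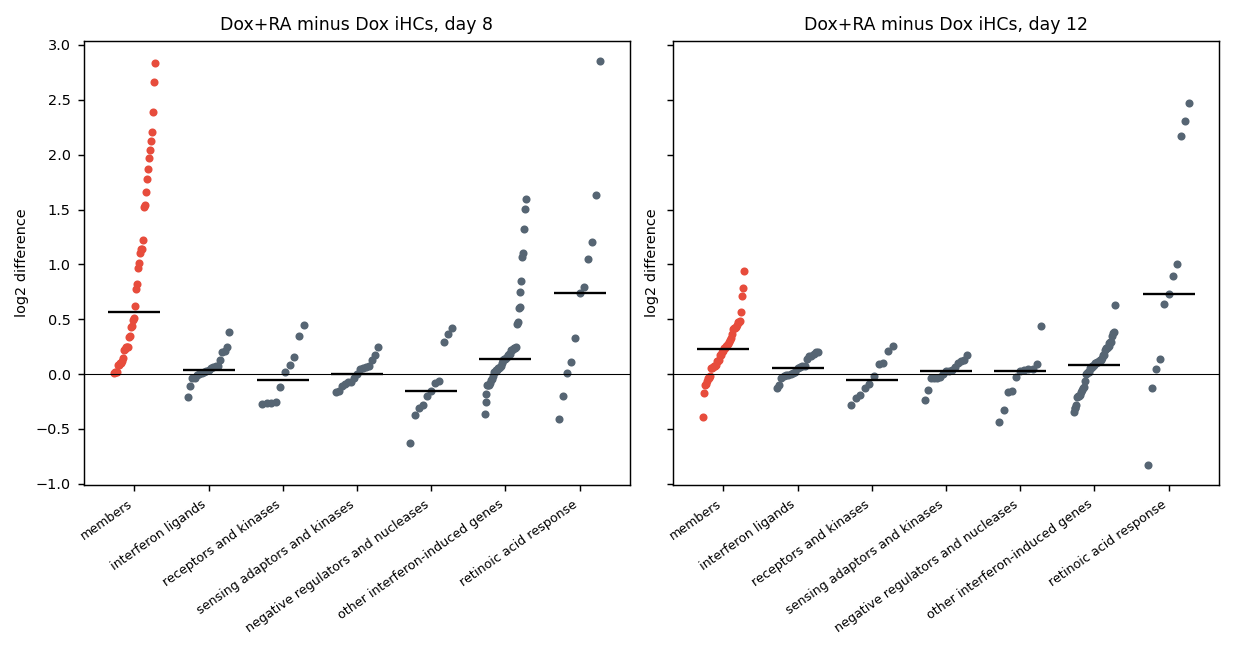
Log2 difference of Dox+RA minus Dox iHCs at day 8 (left) and day 12 (right) for the 42 genes and the genes of each pathway list, 1 point a gene with the list's median as a line. The 19 interferon genes lie between -0.21 and 0.38, and Rnf213 and Trim21 lead the other interferon-induced genes at 1.60 and 1.51 on day 8.

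Genes that respond to RA directly served for comparison. Of 11 on the array, 3 were called higher with RA at day 8 and 3 at day 12, beside 2.05% and 0.383% of all genes. Hoxb5 differed by 2.85 ± 0.18 and 2.31 ± 0.18, and Cyp26b1, an RA-degrading enzyme, by 1.63 ± 0.21 and 2.47 ± 0.21. Dhrs3, a retinaldehyde reductase, differed by 1.05 ± 0.24 and 2.17 ± 0.24. Hoxb1 differed by 1.21 ± 0.34 at day 8 and was not called. Without Dox day 8 replicate 3 the day 8 count was 6. The differences of Hoxb5, Cyp26b1 and Dhrs3, named because they were large or called, were above 1 on both days. Over all 11 genes the differences ran from -0.41 to 2.85 at day 8 and from -0.83 to 2.47 at day 12. The medians of the 11 were 0.74 and 0.73. No member of the interferon set reached 1 at day 12. Whether the change from day 8 to day 12 differed between these genes and the set was not tested.

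Markers of other cells were compared at day 8 with RA as well. None of 11 macrophage, 5 dendritic and lymphoid or 5 endothelial markers was called by limma, beside 4.93% of all genes. In each of these lists 0 passed an unadjusted p of 0.05. Of the mesenchyme, red cell and pluripotent markers 0 were called, and 2, 1 and 1 passed that unadjusted p. The mesenchyme markers Postn and Pdgfra differed by -1.15 ± 0.35 and -0.88 ± 0.25, and the pluripotency gene Nanog by -0.59 ± 0.30. With the replicate block Postn and Pdgfra were both called lower; 1 or both were also called without Dox day 8 replicate 1 or without Dox day 12 replicate 1 or 3, and Postn in a fit of only the groups compared. The mean macrophage level was 4.50 to 4.60 on Dox+RA arrays and 4.45 to 4.54 on Dox arrays of day 8. Of the hair cell markers, 4 of 8 were called higher with RA at day 8, beside 2.05% of all genes called higher. These were Cdh23 by 1.10 ± 0.17, Myo7a by 1.02 ± 0.25, Lhx3 by 0.89 ± 0.18 and Espn by 0.52 ± 0.13. The count fell to 1, Cdh23, without Dox day 8 replicate 2 or without replicate 3, to 2 without Dox+RA day 8 replicate 1 or without replicate 2, and to 2 in a fit of only the groups compared. The mean level of the 8 was 9.69 to 9.71 on Dox+RA day 8 arrays and 8.99 to 9.33 on Dox day 8. The part of hair cell and mesenchyme markers in the interferon-stimulated genes' values was not tested.

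In the control EBs, 32 of the 100 pathway genes were higher than in Dox iHCs at day 8 and 10 lower. Ifngr1, a chain of the interferon-gamma receptor, fell in Dox iHCs by 1.39 at day 8 (adjusted p = 9.2e-07) and by 1.88 at day 12 (adjusted p = 2.4e-08). Sting1, the adaptor of cytosolic DNA sensing, fell by 1.12 (adjusted p = 2.8e-05) and 1.89 (adjusted p = 8.5e-08). Jak2 rose in the same contrasts by 1.39 ± 0.11 (adjusted p = 2.3e-07) and 2.27 ± 0.11 (adjusted p = 9.1e-10). The 10 higher and 32 lower of 100 stand beside 15.7% and 18.9% of all genes. At day 12, 8 were called higher and 39 lower in Dox iHCs, beside 19.2% and 21.7% of all genes, and 7 higher and 34 lower in Dox+RA iHCs, beside 22.4% each.

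Over the 12 iHC arrays, the mean of the 42 centred genes was used to find genes of like pattern outside the set. The 10 with the highest Pearson r were Trim21 (0.968), Rnf213 (0.964), Scyl2 (0.959), Tmem63c (0.958), Gbp3 (0.942), Thbs2 (0.941), Gm5091 (0.935), H2-T24 (0.926), Gm6548 (0.923) and Irgm1 (0.918). Of these, 4 were on the pathway lists. Within the set, 26 of the 42 had an r of 0.8 or more with the mean they belong to, the highest being Ifih1 at 0.991 and the lowest Ifit3 at -0.161. The arrays share 1 platform and 3 replicate numbers, and the values describe likeness alone.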

How the data were processed

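RNA of the 16 samples was hybridised to Affymetrix whole-transcript mouse arrays, 1 array a sample. The deposited table holds log2 values from the authors; the submitters' processing notes name Affymetrix Expression Console and the RMA method. RMA corrects background, equalises the arrays' distributions and summarises probes, so a shift shared by all genes would not be seen. The values ran from 1.44 to 12.3 with array medians of 4.67 to 4.82. The number of arrays limits the precision. The genome build of the probe design is not given in the sources used here.

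Of 33708 rows, 23521 had 1 gene symbol, 1814 several and 8373 none. The row with the highest mean stood for a gene, which left 22180 genes. Differences were fitted with limma 3.58.1 in R 4.3.3 (lmFit, contrasts.fit and eBayes, 6 group means, all 16 arrays), adjusted by Benjamini-Hochberg over all genes, and called at an adjusted p under 0.05. The fit was checked on simulated data. Plots were drawn with matplotlib 3.10.9 and tables joined with pandas 2.3.3 under Python 3.11.15.

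The members and the lists were chosen with earlier results of these data known. Differences that involve Dox+RA day 8 are therefore descriptions, and no p is printed for them. The thresholds were still applied there to count calls, and those calls and counts are descriptions too. Values on every array were printed for the 10 genes with the largest day 8 RA difference, for the largest and smallest of each role group, and for up to 4 called genes in each contrast the choice did not use. In the pathway lists the 3 genes farthest from 0 at day 8 were named; Ifnb1, Dhrs3, Ifngr1, Sting1 and the further called genes were picked after their values were seen. Replicate numbers paired the iHC samples in the data: over 6 pairs of iHC groups, same-numbered deviations from the group means correlated at 0.147 to 0.513, while the labels do not say what a number shares. Alternatives were the replicate block, median centring, quantile scaling, a filter on dim genes, other moderation and row choices, a fit of only the groups compared, and each array left out in turn.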

Additional observations from a re-analysis of the deposited data

Results flagged for a closer look

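Over time, some genes changed differently in Dox iHCs than in control EBs, by limma's interaction term over all genes. Uba7, the ISG15-activating enzyme, had a Dox change that exceeded the EB change by 0.96 (SE 0.21, adjusted p = 0.0224): it moved by 0.03 in Dox iHCs and by -0.92 in control EBs. That call was lost without EB day 12 replicate 1 (0.81, adjusted p = 0.134), without EB day 8 replicate 2 (0.63, adjusted p = 0.0898) and in a fit of those groups alone (adjusted p = 0.0773), and over all alternatives its adjusted p ran from 7.2e-04 to 0.134.

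Among pathway genes outside the set, the Dox change exceeded the EB change by 0.88 for Jak2 (adjusted p = 0.00843), which moved by 0.64 in Dox iHCs and by -0.24 in control EBs. For Ifnar2, a chain of the type I receptor, the difference of changes was -0.80 (adjusted p = 0.00705), from -0.52 and 0.28. For Ifi27 it was -2.27 (adjusted p = 3.0e-05), since Ifi27 moved by 0.02 in Dox iHCs and by 2.29 in control EBs.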

How the results depend on the processing

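Recomputing the members' values gave 12680 of 13000 on the same side of the threshold, 184 that lost and 136 that gained a call, and 0 that turned sign. The day 8 RA contrast called 20 to 26 of the 42 over 24 alternatives, against 23. Limits are 2 EB arrays a day, 1 cell line, and a sort that was applied only to iHCs. With the replicate block, which uses the pairing of iHC samples by number, 2 genes of the set were called for RA at day 12 and 3 for time in Dox iHCs; each count was 0 without it. Median centring gave 1 for RA at day 12; quantile scaling and the filter on dim genes each gave 1 for time in Dox iHCs. A fit of only the groups compared gave 0 for time in control EBs and 0 for the Dox change minus the EB change, against 1 each. Leaving out dim genes raised the median member difference of Dox+RA day 8 to 0.80 against Dox day 8, 0.59 against Dox+RA day 12 and 0.87 against Dox day 12, since fewer genes were kept. For the 100 pathway genes, RA at day 12 called 3 with the block, 0 with median centring, 2 with quantile scaling and 0 with only the groups compared, against 1. Time in Dox iHCs called 10 with the block and 2 with only the groups, against 6; time in EBs called 8 with the block and 5 with quantile scaling or other moderation, against 3; the Dox minus EB change called 7 with the block and 5 with quantile scaling, against 3. For the RA effect at day 8 minus that at day 12, the main fit called Mx2 alone and the block called 2 GTPases. There the block also called 1 gene each of the OAS, IFIT, PARP and other effector groups. No other count over the 42 genes or over the 100 pathway genes changed by over 1.5 times with the block. Shorter lists moved as given beside their counts. With 1 array left out, members called ranged over 10 to 18 (Dox against EB, day 8), 12 to 19 (day 12), 9 to 16 (Dox+RA against EB, day 12), 0 to 1 (RA at day 12), 0 to 1 (time in Dox iHCs), 0 to 2 (time in EBs) and 0 to 2 (Dox minus EB change). Median differences of Dox+RA day 8 ranged over 0.54 to 0.66 from Dox day 8, 0.37 to 0.61 from EB day 8, 0.43 to 0.59 from Dox+RA day 12, 0.53 to 0.65 from Dox day 12 and 0.31 to 0.52 from EB day 12, and that of the RA effects 0.42 to 0.55. Pathway calls ranged over 29 to 44, 37 to 48 and 33 to 43 against EBs, 8 to 14 for RA at day 8, 0 to 2 for RA at day 12, 4 to 9 for time in Dox iHCs, 1 to 6 for time in EBs and 3 to 6 for the Dox minus EB change. Genes with the 3 Dox+RA day 8 arrays above all others numbered 18 to 22. Where no construction is named, the cause was not tested.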
